A study of Mus musculus with 8 samples.

Results

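Oligodendrocytes wrap axons of the central nervous system in myelin, a stack of compacted membrane that is rich in galactolipids and in a small set of structural proteins. They arise from precursor cells that carry the receptor PDGFRA, pass through a committed, newly formed stage marked by GPR17 and ENPP6, and then switch on the myelin genes under SOX10 and MYRF. In the hypothalamus, precursors keep dividing in the adult, and mature cells are densest in the fibre tracts that cross or border it. The 29 genes described here span this course. They were chosen by name as 4 precursor genes, 4 genes of committed precursors and newly formed cells, 5 transcription factors, 11 genes of myelin structure and 5 genes for enzymes, a channel and a receptor of myelinating cells. All 29 had a row in the deposited table of 55487 genes, and all 29 passed the filter on low counts that left 17047 genes for testing.

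The libraries hold polyadenylated RNA from the hypothalamus of C57BL/6J mice. The 4 hypoxia libraries are from mice that breathed 7% oxygen for 2 hours in a chamber, and the 4 normoxia libraries are from mice kept at 21% oxygen for the same time. The labels used here give neither age nor sex. They number the libraries of a group as replicates and do not say whether each came from a separate mouse. Total counts ran from 16994473 to 21694383 per library. Levels are in CPM, counts scaled to the library total after TMM adjustment for composition, and a mean is given with its SD over the 4 libraries of the group. A positive log2 change means a higher level in hypoxia, and a gene is called when its adjusted p is under 0.05.

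The libraries differed in RNA of neighbouring regions. Hypothalamic peptide genes were present in every library, with Pmch at 160 to 374 CPM, Oxt at 55.4 to 126 CPM and Hcrt at 47.5 to 120 CPM. Each of these was lowest in normoxia replicate 2, as were Avp, Trh and Agrp. Slc17a7, a transporter gene of cortical neurons, reached 384 CPM in normoxia replicate 2, against 80.3 CPM or less in the other 7 libraries. That library also had the highest pituitary hormone RNA (Prl at 40.4 CPM), with hypoxia replicate 4 next (Prl at 28.6 CPM). In normoxia replicate 1 the thalamic gene Prkcd reached 133 CPM, against 19.1 to 36.3 CPM elsewhere.

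The 29 genes together took 0.602% to 1.02% of the counts of a library. After 2 hours at 7% oxygen, 1 of the 29 was called higher (Pdgfra) and 0 were called lower. Among all 17047 genes tested, 2.15% were called (0.915% higher and 1.23% lower). The split was 156 higher and 210 lower, and 146 higher and 342 lower when libraries were scaled by total count alone. At an unadjusted p under 0.05 there were 5 members (Pdgfra, Olig1, Olig2, Sox10 and Nkx6-2), and 19.3% of all genes tested were at that level. The number of members called was 2 without normoxia replicate 2 (Pdgfra and Nkx6-2; 3.91% of all genes), 1 without hypoxia replicate 4 (4.01% of all genes) and 0 without any of the other 6 libraries. Without both of those libraries it was 2 (6.98% of all genes), and DESeq2 called Pdgfra alone (5.97% of all genes). The median log2 change of the 29 was −0.08, beside −0.01 for all genes tested, with 19 of 29 members and 51.8% of all genes below 0. That median was 0.04 without normoxia replicate 1, when 10 members were below 0. In bulk RNA, fewer cells of a type and less RNA per cell cannot be told apart.

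**Figure D1:**
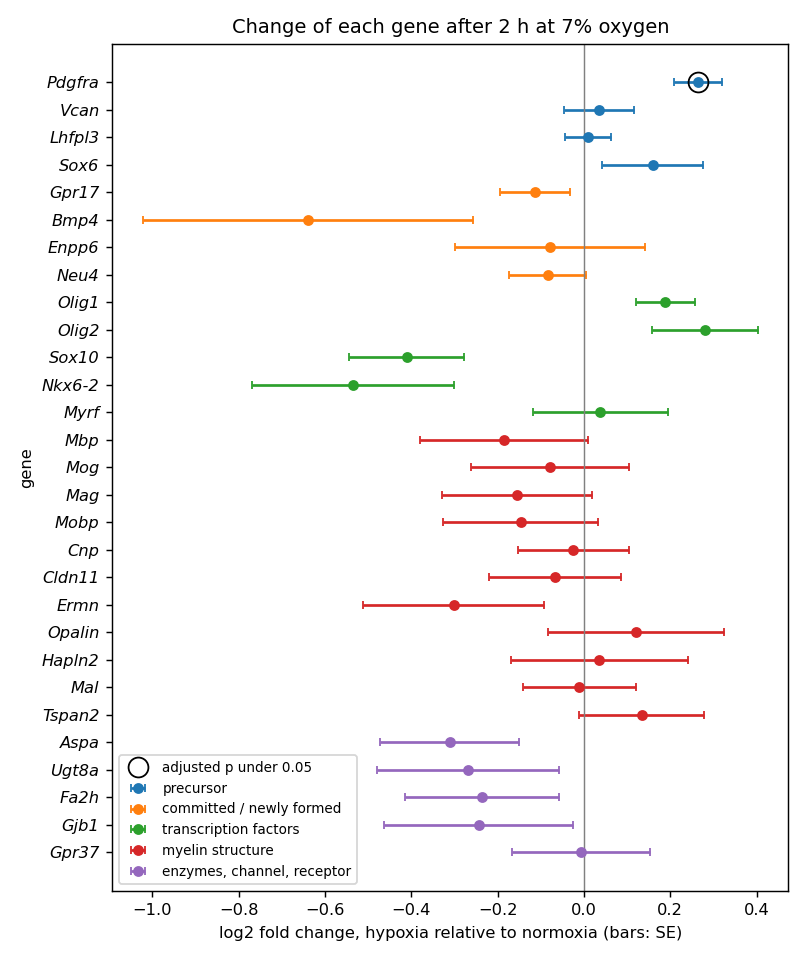
Log2 fold change of each of the 29 genes in hypoxia relative to normoxia (x axis; bars are SE from edgeR, 4 libraries per group), with genes down the page and colours for the gene groups. The ringed point, Pdgfra, is the 1 called gene, the 4 precursor genes lie above 0 (Lhfpl3 below 0 when libraries are scaled by total count alone), and Sox10, Nkx6-2 and Bmp4 lie furthest below it.

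Sequence upstream of 4 of these genes is shown because they stand for the patterns described below: Pdgfra was the called gene, Nkx6-2 had the lowest log2 change among the transcription factors, and Mobp and Mog are myelin genes whose levels moved together from library to library. The bases lie upstream of the annotated starts (RefSeq, GRCm38.p6), at chr5:75152001-75152250 on the plus strand for Pdgfra and chr7:139582798-139583047 on the minus strand for Nkx6-2. Those for Mobp are chr9:120149492-120149706 on the plus strand, and those for Mog are chr17:37023399-37023648 on the minus strand. Capitals mark matches on either strand to a SOX motif (ACAAAG or ACAATG), a core motif of hypoxia-inducible factors (ACGTG or GCGTG) or an E-box (CANNTG), which is the motif bound by OLIG2.
Pdgfra: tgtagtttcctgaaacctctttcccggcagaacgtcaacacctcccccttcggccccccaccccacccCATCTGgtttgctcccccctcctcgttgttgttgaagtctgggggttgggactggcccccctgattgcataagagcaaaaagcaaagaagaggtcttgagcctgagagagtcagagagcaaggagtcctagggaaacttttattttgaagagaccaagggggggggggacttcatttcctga
Nkx6-2: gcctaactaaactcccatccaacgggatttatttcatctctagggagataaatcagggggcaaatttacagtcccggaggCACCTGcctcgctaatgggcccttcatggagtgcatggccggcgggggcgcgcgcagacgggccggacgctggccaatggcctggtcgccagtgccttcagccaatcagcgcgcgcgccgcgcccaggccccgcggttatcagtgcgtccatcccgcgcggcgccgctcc
Mobp: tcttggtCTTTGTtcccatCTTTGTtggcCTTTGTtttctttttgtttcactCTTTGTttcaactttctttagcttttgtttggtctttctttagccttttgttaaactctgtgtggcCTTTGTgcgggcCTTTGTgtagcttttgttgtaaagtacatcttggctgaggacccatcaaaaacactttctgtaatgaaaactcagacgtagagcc
Mog: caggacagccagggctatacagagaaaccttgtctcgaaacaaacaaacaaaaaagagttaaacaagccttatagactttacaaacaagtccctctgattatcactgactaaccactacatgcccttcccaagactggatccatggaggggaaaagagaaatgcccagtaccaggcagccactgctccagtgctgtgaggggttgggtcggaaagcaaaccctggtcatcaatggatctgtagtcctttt

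The capitals are 1 E-box in Pdgfra, 1 E-box in Nkx6-2 and 6 SOX matches in Mobp, and Mog has 0 matches to any of the 3 motifs. The promoter table held 34 start windows for 23 of the 29 genes. In windows of 250 bases before the start, a SOX match was present in 17 of the 34 member windows (50.0%) and in 25.2% of 32851 windows of all genes. The hypoxia-inducible factor core was present in 29.4% of member windows and 38.6% of all windows, and an E-box in 76.5% of member windows and 66.2% of all windows. A gene with several starts has several windows. By gene, a SOX match, the hypoxia-inducible factor core and an E-box were present in 11, 10 and 16 of the 23. The matching shares of all genes were not counted. A match is a description of letters only.

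Of the 4 precursor genes, 1 was called higher and 0 lower, and all 4 had a log2 change above 0, or 3 of 4 with scaling by total count alone. Without normoxia replicate 3, 2 of the 4 were above 0. Pdgfra encodes the receptor for the growth factor PDGF-AA, which drives precursor division (chromosome 5, 75152292 to 75198215, mm10). It was at 96.9, 94.5, 97.8 and 93.3 CPM in the hypoxia libraries, against 81.5, 72.1, 79.8 and 85.1 CPM in the normoxia libraries. Every hypoxia library was above every normoxia library, and hypoxia spread less than normoxia (95.6 ± 2.07 CPM in hypoxia and 79.6 ± 5.50 CPM in normoxia). The log2 change was 0.26 ± 0.06 (SE; edgeR quasi-likelihood test, adjusted p = 0.0462 by Benjamini-Hochberg). Pdgfra was the 1 member without overlap between the groups, where 13.4% of all genes tested had none (5.69% higher and 7.75% lower).

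The call on Pdgfra was close to the threshold. With each library left out in turn, Pdgfra was called 2 times of 8, without normoxia replicate 2 or without hypoxia replicate 4, while the log2 change stayed between 0.22 and 0.30 (adjusted p 0.0219 to 0.167). Pdgfra shares 456 and 166 of its 10024 exon bases with Gm42802 and Gm42803 on the opposite strand, and both of these were at 0.213 CPM or less in every library. Meningeal fibroblasts also express Pdgfra. On a list of 10 fibroblast markers that holds Pdgfra, the other 9 had negative log2 changes, 0 of them were called and all 9 overlapped between the groups, with Col1a1 at 19.3 ± 4.26 CPM in hypoxia and 24.9 ± 4.92 CPM in normoxia. The part of fibroblast RNA in the level of Pdgfra was not tested.

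The other 3 precursor genes were not called. Summed, the 4 were at 249, 233, 244 and 239 CPM in hypoxia, against 228, 212, 208 and 232 CPM in normoxia, with Pdgfra and Lhfpl3 making up most of each sum. Sox6, a transcription factor that holds precursors undifferentiated, was at 37.0, 31.9, 36.7 and 35.3 CPM in hypoxia, against 34.3, 26.4, 27.4 and 37.9 CPM in normoxia. Normoxia was split, with replicates 2 and 3 below all hypoxia libraries and replicate 4 above them (log2 0.16 ± 0.12, SE; edgeR adjusted p = 0.491). Vcan, which encodes the matrix proteoglycan versican, averaged 35.2 ± 1.21 CPM in hypoxia and 34.4 ± 3.92 CPM in normoxia. Lhfpl3, a membrane protein gene used as a precursor marker, varied least of the 29, by 1.13-fold between its highest and lowest library, at 75.2 ± 3.64 CPM in hypoxia and 74.6 ± 3.66 CPM in normoxia.

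Further precursor genes outside the 29 came from a list of 35 other genes of the lineage, of which 2 (Cspg4 and Cacng4, both higher) had no overlap between the groups, beside 13.4% of all genes tested. Cspg4 encodes the NG2 proteoglycan of precursors and is also expressed by pericytes. It was at 39.4, 39.3, 39.6 and 37.1 CPM in hypoxia, against 35.9, 30.2, 36.2 and 35.5 CPM in normoxia. The groups did not overlap, but the gene was not called (log2 0.17 ± 0.07, SE; edgeR adjusted p = 0.203). On a list of 10 mural cell genes that holds Cspg4, Kcnj8 was called higher and 0 lower, beside 2.15% of all genes tested. The log2 change of Kcnj8 was 0.98 ± 0.19 (SE, edgeR adjusted p = 0.0371), and the list had 5 positive and 5 negative changes. The part of pericyte RNA in the level of Cspg4 was not tested. Cacng4, an auxiliary subunit gene of AMPA receptors, averaged 97.2 ± 8.92 CPM in hypoxia and 85.7 ± 1.28 CPM in normoxia, also without overlap and not called (edgeR adjusted p = 0.166). Cspg4 and Cacng4 are among the genes of the list of 35 with the smallest p. Ptprz1, a receptor phosphatase gene of precursors and astrocytes, was at 381, 370, 380 and 370 CPM in hypoxia, against 386, 359, 346 and 342 CPM in normoxia, and overlapped (log2 0.07 ± 0.05, SE; edgeR adjusted p = 0.485). Myt1 and Nkx2-2, transcription factor genes of precursors and committed cells, had log2 changes of −0.11 ± 0.08 and −0.23 ± 0.16 (SE), and were not called. These last 3 were named after their values were seen.

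**Figure D2:**
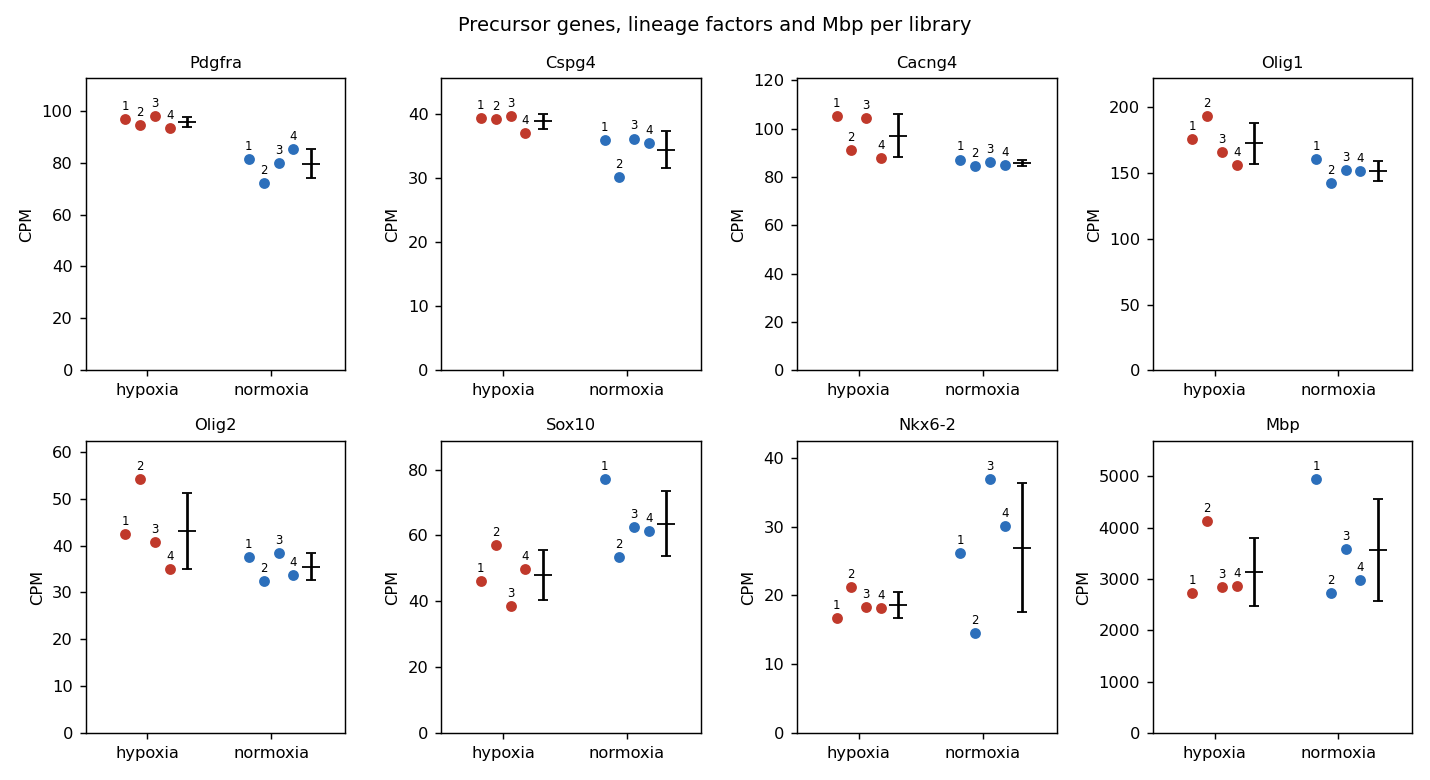
TMM-scaled CPM (y axes, from 0) of 8 genes in the 4 hypoxia and 4 normoxia libraries, with replicate numbers beside the points and mean ± SD beside each group. Pdgfra, Cspg4 and Cacng4 are higher in every hypoxia library than in any normoxia library, while the other 5 genes overlap between the groups.

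None of the 4 genes of committed precursors and newly formed cells was called by edgeR, at an unadjusted or an adjusted p under 0.05 (count 0), and all 4 had log2 changes below 0 (median −0.10). The median was −0.04 without normoxia replicate 1 and −0.22 without hypoxia replicate 2, and 3 of the 4 were below 0 without hypoxia replicate 3, hypoxia replicate 4 or normoxia replicate 1. Gpr17 encodes a receptor that peaks in committed precursors and holds back maturation. It was at 104, 103, 89.6 and 104 CPM in hypoxia, against 120, 116, 95.6 and 102 CPM in normoxia, with the ranges overlapping (log2 −0.11 ± 0.08, SE; edgeR adjusted p = 0.476). Neu4, a sialidase gene, was at 14.5, 14.8, 13.4 and 16.2 CPM in hypoxia, against 17.5, 15.9, 14.8 and 14.4 CPM in normoxia. Enpp6 encodes a choline phosphodiesterase of newly formed oligodendrocytes and was at 12.6, 20.6, 11.7 and 11.5 CPM in hypoxia, against 19.7, 13.0, 15.3 and 11.7 CPM in normoxia. Its high libraries were hypoxia replicate 2 and normoxia replicate 1, as for the myelin genes below. Bmp4, the gene for a signal that turns precursors away from the oligodendrocyte fate, was the lowest member in CPM and had the widest spread, 4.54-fold between libraries. It was at 1.84, 4.53, 1.69 and 3.89 CPM in hypoxia, against 3.81, 3.24, 3.73 and 7.67 CPM in normoxia (log2 −0.64 ± 0.38, SE; edgeR adjusted p = 0.393). Its log2 change was −0.27 without normoxia replicate 4 and −0.90 without hypoxia replicate 2.

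The 5 transcription factor genes had log2 changes of both signs, and 0 were called at the adjusted threshold. An unadjusted edgeR p under 0.05 was found for 4 of them, beside 19.3% of all genes tested. OLIG1 and OLIG2 are paired basic helix-loop-helix factors that set the lineage, and their genes lie close together on chromosome 16. Olig1 was at 176, 193, 166 and 156 CPM in hypoxia, against 161, 142, 152 and 151 CPM in normoxia. Normoxia replicate 1 lay above hypoxia replicate 4, and otherwise the groups were apart (log2 0.19 ± 0.07, SE; edgeR adjusted p = 0.177). Olig2 was at 42.6, 54.2, 40.7 and 35.1 CPM in hypoxia, against 37.5, 32.5, 38.4 and 33.7 CPM in normoxia (log2 0.28 ± 0.12, SE; edgeR adjusted p = 0.250). As for Olig1, hypoxia replicate 2 was the highest library and hypoxia replicate 4 lay within the normoxia range. Without hypoxia replicate 2 the log2 change of Olig2 was 0.15.

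SOX10 is needed for terminal differentiation and works with MYRF on the myelin genes. Sox10 was at 46.2, 57.0, 38.6 and 49.8 CPM in hypoxia, against 77.1, 53.6, 62.5 and 61.3 CPM in normoxia. Hypoxia replicate 2 was above normoxia replicate 2, and otherwise the groups were apart (log2 −0.41 ± 0.13, SE; edgeR adjusted p = 0.136). Nkx6-2, a homeobox factor of maturing oligodendrocytes, was at 16.7, 21.2, 18.3 and 18.2 CPM in hypoxia, against 26.2, 14.5, 36.9 and 30.1 CPM in normoxia. Normoxia replicate 2 was the lowest of all 8 libraries and the other 3 normoxia libraries were the highest (log2 −0.54 ± 0.23, SE; edgeR adjusted p = 0.248). Without that library Nkx6-2 was called, at a log2 change of −0.73 (edgeR adjusted p = 0.0144, range 0.0144 to 0.452 over the 8 fits with a library left out). Nkx6-2 shares 246 of its 1907 exon bases with Inpp5a on the opposite strand, which was at 61.4 to 79.6 CPM, so its level is uncertain if the counting ignored strand.

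Myrf, the regulator that switches on myelin genes, was at 101, 122, 93.97 and 91.0 CPM in hypoxia, against 130, 76.2, 102 and 88.6 CPM in normoxia. The groups overlapped almost wholly (log2 0.04 ± 0.16, SE; edgeR adjusted p = 0.922). The ratio of Sox10 to Olig2 was formed after their log2 changes were seen to have opposite signs. That choice favours a ratio without overlap, so it is given without a test. The ratio of Sox10 to Olig2 was 1.09, 1.05, 0.948 and 1.42 in hypoxia, against 2.06, 1.65, 1.63 and 1.82 in normoxia. This ratio of CPM values did not overlap between the groups. The ratio of Olig1 to Olig2 was 4.06 ± 0.37 in hypoxia and 4.28 ± 0.226 in normoxia.

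The 11 genes of myelin structure made up most of the RNA of the 29, and none was called by edgeR, at an unadjusted or an adjusted p under 0.05 (count 0). Their summed level was 5394, 7739, 5505 and 5587 CPM in hypoxia, against 8976, 5131, 6759 and 5733 CPM in normoxia. The highest hypoxia library was replicate 2 and the highest normoxia library was replicate 1, and the groups overlapped. Mbp encodes myelin basic protein, which holds the cytoplasmic membrane faces together. It was at 2719, 4117, 2833 and 2868 CPM in hypoxia, against 4941, 2727, 3590 and 2985 CPM in normoxia (log2 −0.18 ± 0.19, SE; edgeR adjusted p = 0.648). Without normoxia replicate 1 the log2 change of Mbp was 0.02.

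**Figure D3:**
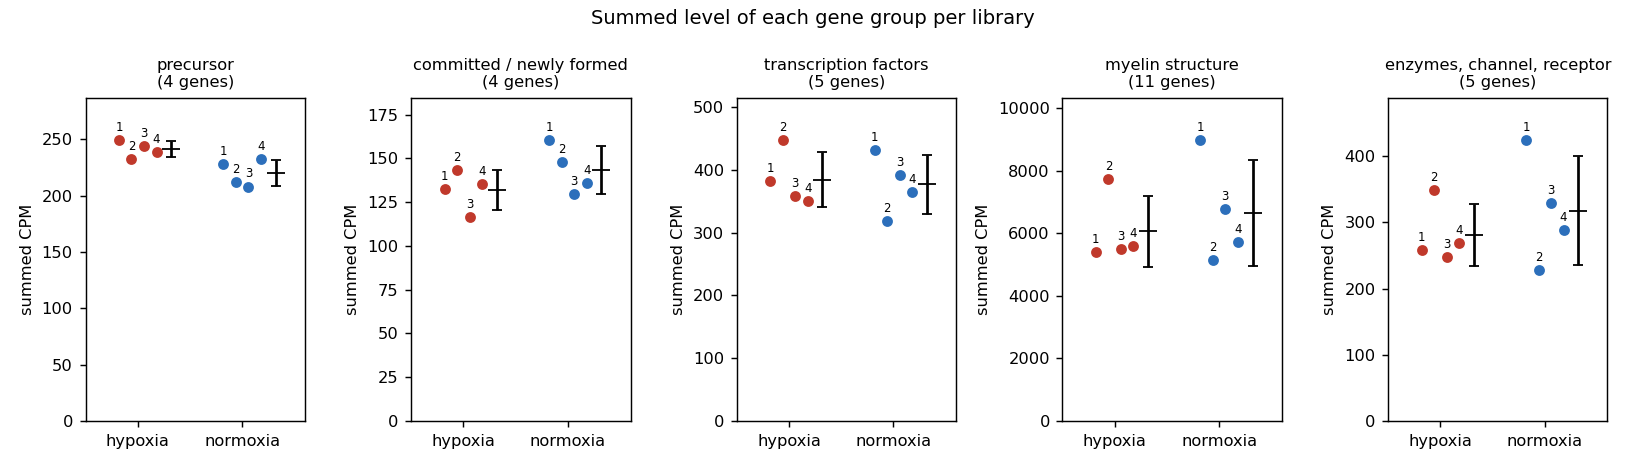
Summed TMM-scaled CPM (y axes, from 0) of the genes of each group in the 4 hypoxia and 4 normoxia libraries, with replicate numbers beside the points and mean ± SD beside each group. Precursor genes sum to 233 to 249 CPM in hypoxia and 208 to 232 CPM in normoxia, and in the other 4 gene groups the libraries of hypoxia and normoxia overlap.

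Per kilobase of exon, Mbp had the highest level of the 29, at 370 ± 77.7 RPKM in hypoxia and 420 ± 117 RPKM in normoxia. Mobp, for a basic protein of compact myelin, followed at 164 ± 31.0 RPKM in hypoxia and 182 ± 45.6 RPKM in normoxia. Mal, for a raft protein that sorts myelin membrane, was at 133 ± 16.7 RPKM in hypoxia and 134 ± 25.1 RPKM in normoxia. Cnp, for a cyclic nucleotide phosphodiesterase of uncompacted myelin, was at 132 ± 14.9 RPKM in hypoxia and 135 ± 25.8 RPKM in normoxia, and Mal and Cnp were not apart beyond their spread. Cldn11, the claudin of the radial component of myelin, was at 103 ± 18.2 RPKM in hypoxia and 108 ± 21.5 RPKM in normoxia. The 4 precursor genes were at 2.38 to 23.4 RPKM in hypoxia and 2.12 to 23.2 RPKM in normoxia, below each of these 5 myelin genes.

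Mag and Mog encode adhesion and surface proteins of the myelin sheath. Mag was at 246, 332, 233 and 243 CPM in hypoxia, against 394, 219, 290 and 271 CPM in normoxia (log2 −0.16 ± 0.17, SE). Mog was at 75.3, 110, 78.3 and 77.5 CPM in hypoxia, against 122, 67.5, 90.0 and 80.5 CPM in normoxia (log2 −0.08 ± 0.18, SE). Both had the same library order at the top, with normoxia replicate 1 above hypoxia replicate 2 and normoxia replicate 2 at the bottom. Ermn, for a cytoskeletal protein of late myelination, had the lowest log2 change of the 11, −0.30 ± 0.21 (SE; edgeR adjusted p = 0.466). Tspan2, a tetraspanin gene, had the highest, 0.13 ± 0.15, and Opalin, a glycoprotein gene of mature cells, and Hapln2, a link protein gene of the nodes of Ranvier, had 0.12 ± 0.20 and 0.04 ± 0.20.

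The 5 genes for enzymes, a channel and a receptor all had log2 changes below 0 (median −0.24) and 0 were called by edgeR, also at an unadjusted p under 0.05. Aspa encodes aspartoacylase, which frees acetate from N-acetylaspartate, and was at 24.4, 30.7, 25.7 and 22.7 CPM in hypoxia, against 41.1, 23.3, 30.4 and 33.3 CPM in normoxia. Normoxia replicate 2 lay within the hypoxia range, and hypoxia replicate 2 lay above normoxia replicates 2 and 3 (log2 −0.31 ± 0.16, SE; edgeR adjusted p = 0.324). Ugt8a and Fa2h make and hydroxylate the galactolipids of myelin and had log2 changes of −0.27 ± 0.21 and −0.24 ± 0.18 (SE). Gjb1, the connexin 32 gene, had −0.24 ± 0.22, and Gpr37, a receptor gene of differentiating cells, had −0.01 ± 0.16. Without normoxia replicate 1, the median of the 5 was −0.07, and that of the 11 structure genes was 0.11, against −0.07 with all libraries.

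The mature genes shared their high and low libraries. All 16 genes of myelin structure and of the enzyme, channel and receptor group were highest, within hypoxia, in replicate 2. Within normoxia all 16 were highest in replicate 1 and lowest in replicate 2. Each of the 11 structure genes varied by 1.49-fold to 2.11-fold over the 8 libraries in CPM. Relative to the summed level of the other structure genes in the same library, the range was 1.08-fold to 1.61-fold, and it was narrower than in CPM for all 11 and for all 5 of the enzyme, channel and receptor group.

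Mog, at 14.3 ± 0.191 CPM per 1000 CPM of the other structure genes in hypoxia and 13.7 ± 0.4 in normoxia, was the steadiest on this scale. The 4 precursor genes had a wider range on this scale than in CPM, up to 2.01-fold for Vcan. The range was also wider for Gpr17, Neu4, Olig1 and Olig2, and narrower for Bmp4, Enpp6, Sox10, Nkx6-2 and Myrf. The scale was chosen after the values were seen, and these values are given without a test.

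**Figure D4:**
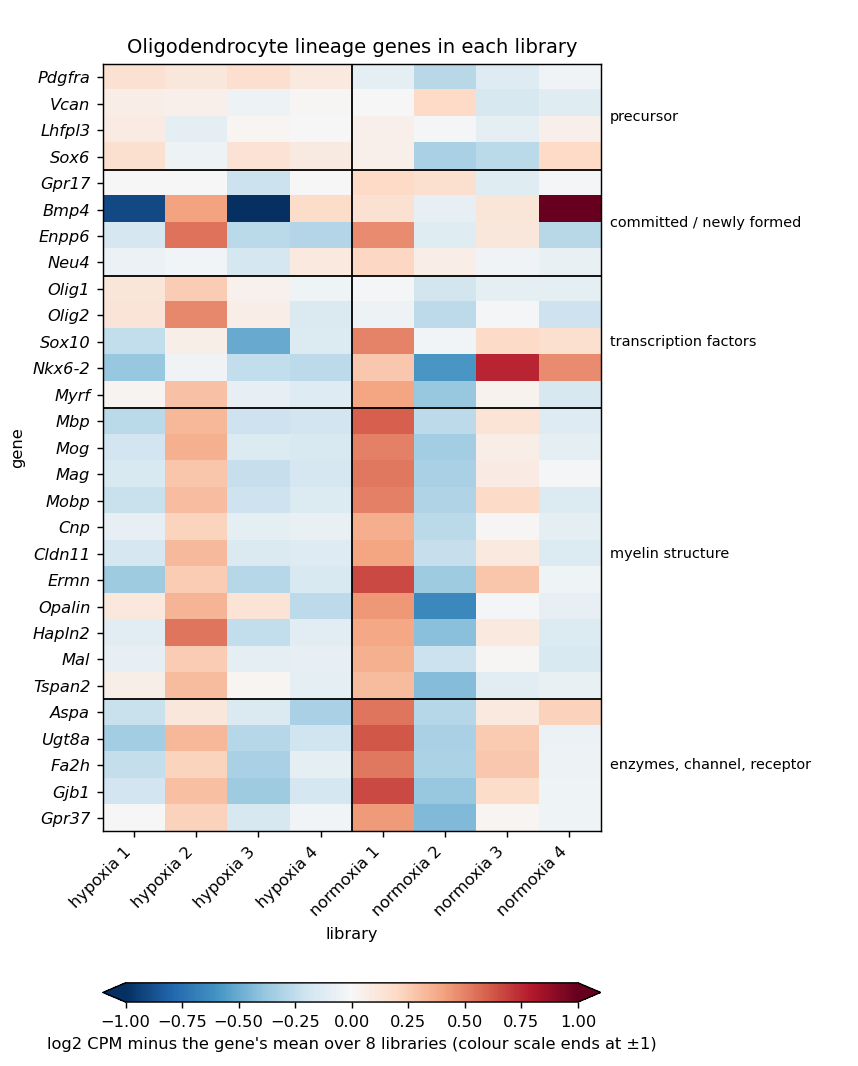
Log2 CPM of each of the 29 genes (rows, by gene group) in each library (columns) minus that gene's mean over the 8 libraries. Hypoxia replicate 2 and normoxia replicate 1 are above the mean (red), and normoxia replicate 2 below it (blue), through the myelin structure and the enzyme, channel and receptor rows, while the precursor rows do not show this pattern.

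**Figure D5:**
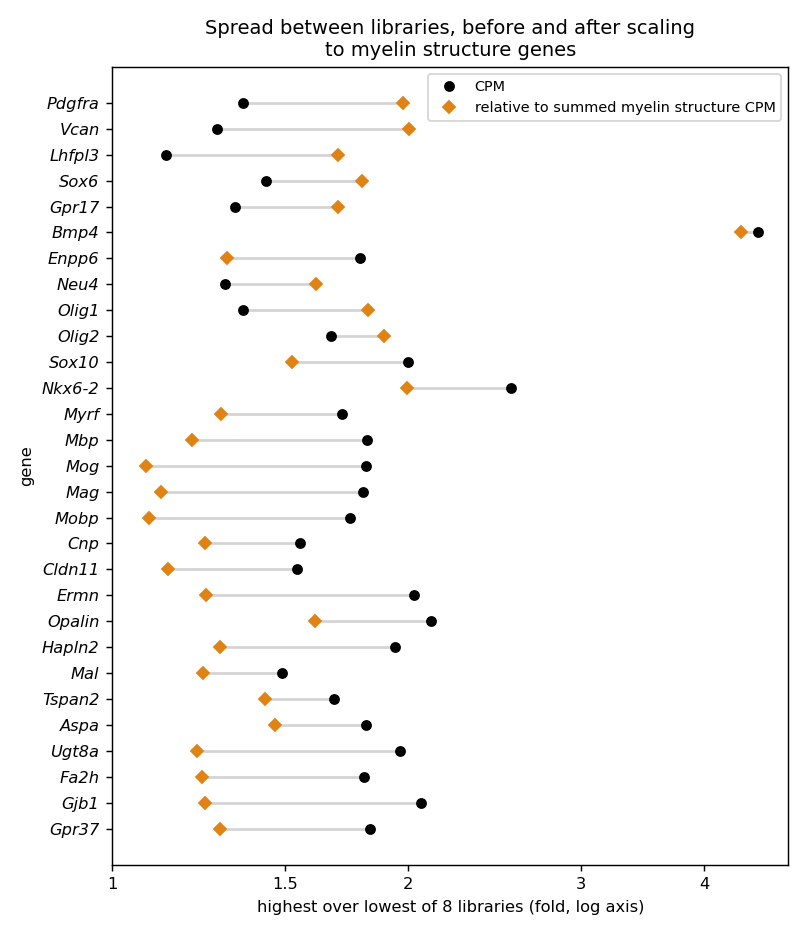
Highest over lowest of the 8 libraries (x axis, fold, log scale) for each of the 29 genes, as CPM (circles) and relative to the summed CPM of the myelin structure genes other than the gene itself (diamonds). The myelin structure and enzyme, channel and receptor genes move to the left with this scaling, and the 4 precursor genes move to the right. Gpr17, Neu4, Olig1 and Olig2 also move to the right.

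Markers of other cells and regions moved with these libraries too. The 12 thalamic genes summed to 699 to 873 CPM in hypoxia and 672 to 1218 CPM in normoxia. Among them were Slc17a6, also counted as a general neuronal gene, and Tcf7l2, which is also among the 35 other lineage genes. The highest sum was that of normoxia replicate 1, as for the structure genes. The lowest was that of normoxia replicate 2, also as for the structure genes. This low end rested on Slc17a6 (114 CPM there, next lowest 217 CPM, normoxia replicate 4). Within hypoxia the orders differed, with the thalamic sum highest in replicate 1, where the structure genes were lowest. The 10 endothelial genes summed to 287 to 332 CPM in hypoxia and 306 to 367 CPM in normoxia, highest in hypoxia replicate 2 and normoxia replicate 1 within their groups. The 10 mural genes (304 to 387 CPM in hypoxia, 311 to 378 CPM in normoxia) and the 10 fibroblast genes (204 to 291 CPM in hypoxia, 221 to 310 CPM in normoxia) were highest in hypoxia replicate 2 and normoxia replicate 4. The 10 striatal genes summed to 880 to 1391 CPM in hypoxia and 519 to 1266 CPM in normoxia, lowest in normoxia replicates 1 and 3, where the structure genes stood highest of the normoxia group. The 10 cortical and hippocampal genes summed to 158 to 217 CPM in hypoxia and 145 to 738 CPM in normoxia, highest in normoxia replicate 2. The 10 astrocyte genes summed to 4621 to 4792 CPM in hypoxia and 4488 to 4834 CPM in normoxia, a sum carried by Slc1a2, Aldoc and Slc1a3. Single astrocyte genes varied more, by 1.70-fold for Gfap, 1.64-fold for Aqp4 and 1.56-fold for S100b over the 8 libraries. Within hypoxia these 3 were highest in replicate 2, and within normoxia Aqp4 and S100b were highest in replicate 1, as the structure genes were. Aldoc, Slc4a4 and Acsbg1 were highest in these libraries of their groups too. Slc1a2 and Slc1a3 went the other way, lowest within hypoxia in replicate 2 and highest within normoxia in replicate 2. Aldh1l1 was highest in replicate 2 of each group, and Gja1 in hypoxia replicate 4 and normoxia replicate 1. The 10 microglial genes summed to 345 to 389 CPM in hypoxia and 328 to 400 CPM in normoxia. In the mural and the fibroblast list 1 gene each was called higher, the latter Pdgfra. In the endothelial and the cortical and hippocampal list 1 gene each was called lower. The other lists had 0 called, beside 2.15% of all genes tested. None of the genes of these 8 lists was at 0 in all 8 libraries. Their part in the levels of the 29 genes was not tested.

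The 35 other lineage genes, which include Trf, Car2 and Bcas1, had 0 called higher and 0 called lower by edgeR. An unadjusted edgeR p under 0.05 was found for 3, beside 19.3% of all genes tested. DESeq2 also called 0. Their median log2 change was −0.11, with 25 of 35 below 0, and without normoxia replicate 1 the median was 0.03. Car2, the carbonic anhydrase gene, was at 126, 172, 129 and 138 CPM in hypoxia, against 230, 155, 169 and 153 CPM in normoxia (log2 −0.32 ± 0.14, SE; edgeR adjusted p = 0.263). Its highest library was normoxia replicate 1, as for the myelin genes, and the groups overlapped. Adamts4, a metalloproteinase gene of mature oligodendrocytes, was at 28.1, 38.6, 25.7 and 34.3 CPM in hypoxia, against 58.9, 33.6, 46.5 and 40.9 CPM in normoxia (log2 −0.51 ± 0.18, SE; edgeR adjusted p = 0.163).

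Signals that act on the lineage, and factors that hold it back, were read from a further list of 20 genes. Of these, 0 were called higher and 4 lower, beside 0.915% and 1.23% of all genes tested. Hes5 was known to be called when this list was chosen, so the count is not a fair comparison with those shares. The 4 were Jag1, Notch1, Hes5 and Apcdd1. The first 3 belong to the Notch pathway, which keeps precursors from maturing, but no list of that pathway was examined, and Hes1, another Notch target gene on the list, had a positive log2 change. Jag1, a Notch ligand, was at 5.32, 6.40, 7.49 and 9.73 CPM in hypoxia, against 13.4, 13.5, 13.9 and 14.8 CPM in normoxia (log2 −0.94 ± 0.16, SE; edgeR adjusted p = 0.0284). Notch1, the receptor gene, fell to 34.4 ± 2.41 CPM in hypoxia, against 44.2 ± 1.98 CPM in normoxia (edgeR adjusted p = 0.0291). Hes5, the target gene that represses differentiation, had a log2 change of −1.16 ± 0.13 (SE), was lower in 4 of 4 hypoxia libraries than in any normoxia library, and was the 1 of the 4 called in all 8 fits with a library left out (edgeR adjusted p = 0.00690). The fourth, Apcdd1, which encodes an inhibitor of Wnt signalling, fell by 0.70 ± 0.15 on the log2 scale (SE; edgeR adjusted p = 0.0497) and was called in 1 of those 8 fits, without normoxia replicate 2. With RLE scaling and with limma-voom Apcdd1 was not called (adjusted p = 0.0513 and 0.0542). Notch1 and Jag1 were called in 2 of them each. Hes5 shares exon bases with Gm20421, and Notch1 with Gm13568 and 0610009E02Rik, all on the opposite strand, and without strand in the counting their reads cannot be told apart.

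The other 16 genes of that list were not called. Of these, 3 had an unadjusted edgeR p under 0.05 (19.3% of all genes tested), and all 3 had positive log2 changes. Hes1 was at 7.21, 8.47, 7.83 and 6.64 CPM in hypoxia, against 6.91, 4.998, 4.77 and 5.04 CPM in normoxia. Normoxia replicate 1 lay above hypoxia replicate 4, and otherwise the groups were apart (log2 0.47 ± 0.14, SE; edgeR adjusted p = 0.123). Fgf2, a mitogen gene of precursors that shares exon bases with Nudt6 on the opposite strand, and Tnfrsf21, the gene of a death receptor that holds back maturation, had log2 changes of 0.32 ± 0.10 and 0.19 ± 0.07 (SE; edgeR adjusted p = 0.123 and 0.183). Id2, an inhibitor gene of OLIG factors, had 0.25 ± 0.12 and was called without normoxia replicate 2. Axin2 and Igf1 had smaller p than Id2 and went the other way, at −0.16 ± 0.07 and −0.62 ± 0.29 (SE; edgeR adjusted p = 0.269 and 0.275). Axin2 (lower) and Tnfrsf21 (higher) had no overlap between the groups, beside 13.4% of all genes tested. Over all 20 genes, 9 log2 changes were positive and 11 negative. Hes1, Fgf2, Tnfrsf21, Id2, Axin2 and Igf1 fall outside the rule for named genes and were picked after their values were seen. All 20 genes are expressed by other cells of the tissue as well, so these values are not those of oligodendrocytes alone.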

How the data were processed

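The assay was RNA-seq of 8 hypothalamus samples. The authors deposited 1 table of unnormalized gene counts, whose 8 columns carry the sample names of the labels. Tools named in the submitters' processing notes are featureCounts, SAMtools, HISAT, HISAT2 2.0.4, Trimmomatic and DESeq2, with build mm10; the kit was stranded, per the labels' protocols. For the annotation release, the strand setting and multi-mapping reads, the choice is not given in the sources used here. Of the 29 genes, 9 share exon bases with a gene on the opposite strand.

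Symbols (55227 of 55487), coordinates and merged exon lengths came from GENCODE M21 (GRCm38), and promoter sequence from RefSeq (GRCm38.p6).

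The counts were tested in edgeR 4.0.16 (R 4.3.3): filterByExpr (minimum count 10, minimum total 15), TMM scaling, group as the only term, quasi-likelihood F test, Benjamini-Hochberg adjustment over 17047 genes. RPKM is TMM-scaled CPM per kilobase of merged exons. The test was checked on simulated counts. Alternatives used DESeq2 1.42.0, limma-voom (limma 3.58.1), other scalings and filters, a replicate block, and each library left out. The fit without normoxia replicate 2 and hypoxia replicate 4, the ratios and the scaling to structure genes were added after seeing the data.

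The members and lists were chosen with earlier results of these data known. The text names all 29 members, Cspg4, and, of the lists of other lineage genes and of signals and brakes, each called gene and the smallest p up to 4. Exceptions are stated, and some genes that the rule names are not reported here. The p-values reflect only how these 8 libraries vary, which may be technical. Libraries correlate at 0.976 to 0.992 within groups (log2 CPM).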

Additional observations from a re-analysis of the deposited data

Results flagged for a closer look

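Each of 86 sets of 4 values (37 named genes, the 5 gene groups and all 29 genes together, in each of hypoxia and normoxia) was searched for a library that stood apart from the other 3 by Dixon's test at its 95% critical value. Chance alone marks about 1 set in 20, and 16 values stood apart.

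Of these, 11 came from hypoxia replicate 2, which was high. They were Mbp (4117 CPM, others 2719 to 2868), Mog (110, others 75.3 to 78.3), Mag (332, others 233 to 246), Mobp (1440, others 994 to 1054) and Cnp (563, others 452 to 456). They further held Cldn11 (244, others 174 to 179), Hapln2 (47.9, others 27.9 to 30.6), Mal (438, others 344 to 346) and Enpp6 (20.6, others 11.5 to 12.6). The last were the sums of the structure genes (7739, others 5394 to 5587) and of all 29 genes (8912, others 6417 to 6580). These genes vary together, so the 11 are not separate events.

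The other 5 were single genes. Gpr17 was low in hypoxia replicate 3 (89.6 CPM, others 103 to 104). Bmp4 was high in normoxia replicate 4 (7.67 CPM, others 3.24 to 3.81), and Notch1 was low there (41.3 CPM, others 45.1 to 45.4). Cspg4 was low in hypoxia replicate 4 (37.1 CPM, others 39.3 to 39.6) and in normoxia replicate 2 (30.2 CPM, others 35.5 to 36.2).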

How the results depend on the processing

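The count of members called was 1, and became 0 with library size alone (Pdgfra adjusted p = 0.0612), 0 with all genes of at least 1 count tested (0.0555), 0 to 2 with 1 library left out, and 2 without normoxia replicate 2 and hypoxia replicate 4. RLE scaling, a minimum count of 30, DESeq2, limma-voom, robust estimation, the newer quasi-likelihood form and an adjusted p under 0.1 each called 1 member. Of all genes, 366 were called, 1017 by DESeq2, 1058 at an adjusted p under 0.1, 26 to 693 with 1 library left out and 1195 without normoxia replicate 2 and hypoxia replicate 4. Signals and brakes called were 4, with 3 by RLE scaling and by limma-voom, and 1 to 5 with 1 library left out, and other lineage genes 0 in every fit run. Members without overlap numbered 1, with 1 to 3 when 1 library was left out and 5 without the pair. The share of all genes without overlap was counted with all 8 libraries alone (13.4%). Groups of fewer libraries separate more easily, so the larger counts cannot be read as a gain. Same-numbered samples did not deviate together over all genes tested (correlations −0.105 to 0.0431). The labels name no pairing, and these correlations cannot settle whether the numbers pair samples. A replicate block gave 21 calls over all genes, 0 among members, 0 among other lineage genes and 0 among signals and brakes.

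The 5 called genes that were followed through the alternatives (Pdgfra, Hes5, Notch1, Jag1 and Apcdd1) kept their direction in each; other called genes were not followed. Among uncalled genes near 0, the log2 change turned sign for Lhfpl3 with library size alone (−0.015), for Myrf (−0.02) and Hapln2 (−0.03) without the pair, and for Gpr37 by limma-voom (0.016) and with the replicate block (0.016). With 1 library left out, log2 changes ran from −0.0032 to 0.12 for Vcan, −0.015 to 0.043 for Lhfpl3, −0.31 to 0.092 for Enpp6, −0.065 to 0.20 for Myrf, −0.34 to 0.020 for Mbp, −0.22 to 0.11 for Mog, −0.28 to 0.025 for Mag and −0.28 to 0.023 for Mobp. They ran from −0.11 to 0.11 for Cnp, −0.20 to 0.073 for Cldn11, −0.032 to 0.32 for Opalin, −0.17 to 0.19 for Hapln2, −0.10 to 0.13 for Mal and −0.13 to 0.16 for Gpr37. Without a change of sign, they ran from 0.087 to 0.27 for Sox6, −0.16 to −0.059 for Gpr17, −0.13 to −0.020 for Neu4, −0.73 to −0.34 for Nkx6-2, −0.44 to −0.095 for Ermn, 0.031 to 0.29 for Tspan2, −0.43 to −0.16 for Aspa, −0.44 to −0.073 for Ugt8a, −0.36 to −0.077 for Fa2h and −0.39 to −0.019 for Gjb1. The upper end was the fit without normoxia replicate 1 for Mbp, Mog, Mag, Mobp, Cnp, Cldn11, Mal, Gpr37 and Enpp6. The cause of these changes was not tested.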
